A study of Mus musculus with 6 samples.

Results

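The Hox-cluster miRNAs are the miRNAs transcribed from within the Hox gene clusters, and here they are mmu-miR-10a, mmu-miR-10b, mmu-miR-196a, mmu-miR-196b and mmu-miR-615. They were chosen by name, taking every mature strand and every locus of these 5 miRNAs, which gave 9 mature strands of the 535 mature miRNAs in the table. The 9 strands take up 10 of its 792 rows and come from 6 of its 436 precursors. All 9 passed the filter on low counts, more than 10 counts in the 6 libraries together, which 525 miRNAs passed.

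Small RNA was sequenced from nephron progenitors (MNP, 3 libraries) and from whole kidney (MWK, 3 libraries) of wildtype CD1 mouse embryos at embryonic day 15.5. The paper collected 3 biological replicates from 3 litters. The progenitor fraction was what remained unbound after antibodies against CD140a, CD105, Epcam and Ter119 had pulled stromal, endothelial, epithelial and erythroid cells out of a partly digested kidney, so it is an enriched population and not a pure one. Whole kidney was the tissue left over after that limited digestion, and the RNA of the groups was purified with different kits (miRNeasy Micro for MNP, miRNeasy Mini for MWK), so that cell isolation, kit and group cannot be told apart. Both groups were taken from the same 3 litters, but which progenitor library shares a litter with which whole kidney library is not given in the sources used here, and the main tests treat the 6 libraries as unrelated. Values were compared between the groups to find which Hox-cluster strands are more abundant in progenitors.

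Hox genes encode homeodomain transcription factors that give cells their position along the body axis, and their order within each of the HoxA, HoxB, HoxC and HoxD clusters follows the order in which they are used along that axis. The miRNAs embedded among them are thought to be transcribed along with their Hox neighbours, and several of them repress Hox mRNAs. In the kidney the Hoxa11, Hoxc11 and Hoxd11 genes are needed in the metanephric mesenchyme, the tissue that holds the nephron progenitors. A miRNA acts through its seed, the bases near its 5′ end that pair with a target mRNA, and each hairpin precursor can yield a 5p and a 3p strand.

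Values of single libraries are given throughout in the order MNP1, MNP2, MNP6 for progenitors and MWK1, MWK2, MWK6 for whole kidney. With 1 value for each mature miRNA, the progenitor libraries held 393951, 436112 and 333850 counts and the whole kidney libraries 349241, 360221 and 355848. Levels are given in CPM, counts scaled to a common total in every library. A count of 3, used as the detection floor, equals 6.88 to 8.99 CPM at these totals before any adjustment of them, and covers counting error only. All 9 strands were above this floor in each of the 6 libraries. The progenitor libraries differed more among themselves than the whole kidney libraries did: the chi-square per degree of freedom between a pair of libraries was 20.6, 55.0 and 21.4 in MNP and 2.90, 6.98 and 8.82 in MWK, with the highest value between MNP1 and MNP6.

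The 6 precursors lie in all 4 Hox clusters (GENCODE M21 gene models, mm10 coordinates as in the table). mir-10a (chr11:96317165-96317274, + strand) lies in HoxB between Hoxb5 and Hoxb4, outside any gene model other than its own, 992 bp before Hoxb4. mir-196a-1 (chr11:96265164-96265265, + strand) is also in HoxB, between Hoxb13 and Hoxb9, 6191 bp before Hoxb9. The HoxC cluster holds mir-196a-2 (chr15:102973350-102973434, + strand), which lies between Hoxc10 and Hoxc9 and in an intron of the long Hoxc5 gene model, and mir-615 (chr15:103014910-103015001, + strand), in an intron of Hoxc5. mir-10b (chr2:74726070-74726137, + strand) lies in HoxD in introns of both the Hoxd4 and the Hoxd3 gene model. mir-196b (chr6:52230081-52230165, - strand) lies in HoxA, 1031 bp downstream of Hoxa10 and inside an exon of 2 of the 5 Hoxa9 transcripts. No other mature miRNA in the table has a precursor within 100 kb of a Hox gene, although 33 rows of the table give no position.

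The sequences show which strands are related and which loci a read can be assigned to. All 9 strands matched the RefSeq miRNA table (GRCm38.p6) and hold 7 different seeds. The capitals mark the seed, bases 2 to 8 from the 5′ end, and the relatives miR-99a-5p and let-7a-5p are shown for comparison.
miR-10a-5p: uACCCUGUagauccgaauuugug
miR-10b-5p: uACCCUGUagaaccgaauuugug
miR-99a-5p: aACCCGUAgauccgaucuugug
miR-196a-5p: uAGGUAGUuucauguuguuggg
miR-196b-5p: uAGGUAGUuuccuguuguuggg
let-7a-5p: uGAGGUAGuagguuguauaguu
miR-615-3p: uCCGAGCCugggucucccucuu
miR-196a-1-3p: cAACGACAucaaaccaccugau
miR-196a-2-3p: uCGGCAACaagaaacugccuga

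Counted from 1 at the 5′ end, miR-10a-5p and miR-10b-5p differ by U12A over 23 bases, and miR-196a-5p and miR-196b-5p differ by A12C over 22 bases. Both differences lie outside the seed, so each pair shares its seed, and no other miRNA of the table that has a sequence (440 of 535) shares it. The miR-196 seed AGGUAGU recurs in let-7a-5p shifted by 1 base, at positions 3 to 9. miR-10a-5p shares with miR-99a-5p the run GUAGAUCCGA, at positions 7 to 16 of the former and 6 to 15 of the latter. miR-196a-5p is the same sequence at both of its loci, in HoxB and HoxC, so a read of exactly this sequence cannot be assigned to either. By contrast, miR-196a-1-3p and miR-196a-2-3p have different sequences and mark the HoxB and the HoxC locus. A difference of a single base also means that the counting of miR-10a-5p against miR-10b-5p, and of miR-196a-5p against miR-196b-5p, could have exchanged some reads. The paper states that miRDeep2 was run with default parameters, and how many mismatches these allow is not given in the sources used here.

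Among the 525 miRNAs tested, miR-10a-5p had the highest mean CPM and miR-10b-5p the next highest. The 9 strands together took 36.3%, 32.4% and 29.1% of the counts in progenitors and 31.5%, 32.3% and 33.4% in whole kidney. The groups overlapped, with the highest and the lowest share both in progenitor libraries. On the scale of CPM, in which totals are adjusted by the trimmed mean of M-values (TMM), the summed level of the 9 strands was 304966 ± 48482 in MNP and 347692 ± 17775 in MWK (SD, n = 3 libraries). This difference was within the spread between the progenitor libraries (exact two-sided permutation test, p = 0.30, where 0.10 is the smallest p that 3 against 3 libraries can give). The log2 ratio of the sums was -0.19, and 0.0098 with library totals in place of TMM, so that its sign depends on the scaling. It was -0.30 without MNP1 and -0.11 without MNP6.

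Of the 9 strands, 3 passed the threshold, an adjusted p of 0.05 in the quasi-likelihood test of edgeR, adjusted by the Benjamini-Hochberg method over all 525 miRNAs, against 36.6% of all miRNAs tested. All 3 were higher in progenitors, a direction that 19.4% of all miRNAs took, and 0 were lower in edgeR, DESeq2 or limma-voom, against 17.1% of all in edgeR. For the 6 strands that did not pass, the unadjusted p was above 0.05 in the main test as well as in DESeq2 and limma-voom. In 4 of the 9 strands the libraries of the groups did not overlap in CPM, against 46.7% of all miRNAs. The share of members past the threshold, 33.3%, was near that of all miRNAs. The median log2 fold change was -0.17 over the 9 strands and -0.011 over all 525. By locus, the strands that rose were miR-615-3p and miR-196a-2-3p, which come from HoxC, and miR-196a-5p, which comes from HoxB and HoxC, and no strand encoded only in HoxA, HoxB or HoxD passed. A difference between loci was tested only for the miR-196 and miR-10 strands, as ratios within a library, and was not tested for miR-615-3p. P-values here set a difference against the spread between these libraries. For each miRNA edgeR fits a single spread to both groups, although the progenitor libraries differed more among themselves. In bulk RNA, fewer cells of a type and less RNA in each cell cannot be told apart.

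**Figure D1:**
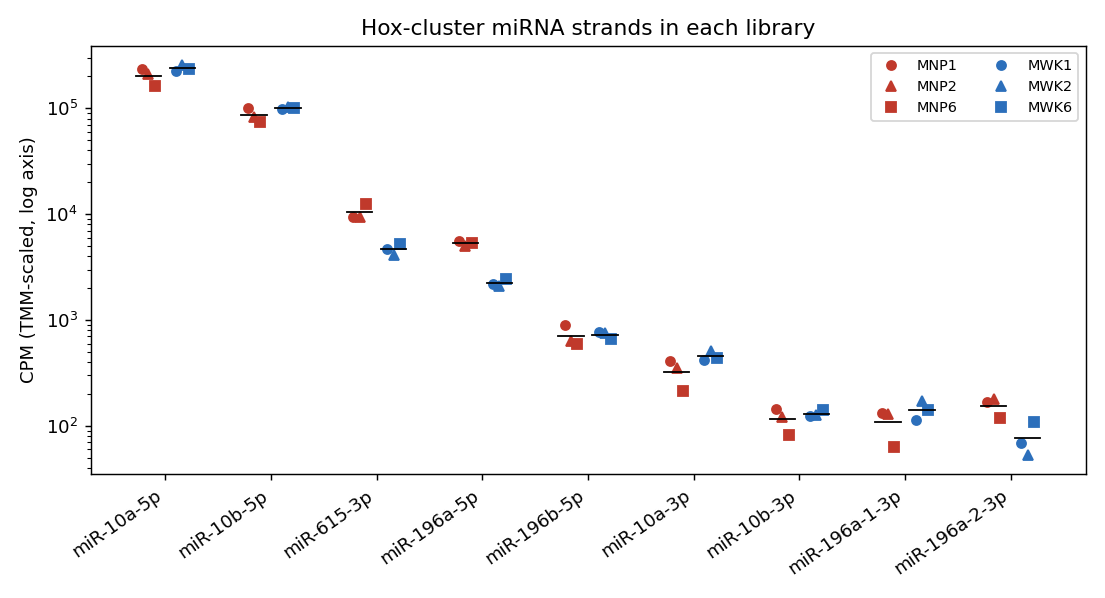
CPM of each Hox-cluster strand (log axis) in the 3 nephron progenitor libraries (red) and the 3 whole kidney libraries (blue), with a point for each library and a line at the mean of each group. miR-615-3p and miR-196a-5p are higher in every progenitor library than in any whole kidney library, and miR-10a-5p and miR-10b-5p, the most abundant strands, overlap between the groups.

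miR-615-3p, encoded in the Hoxc5 intron, stood at 9343, 9306 and 12548 CPM in progenitors and at 4703, 4071 and 5172 CPM in whole kidney. All 3 progenitor libraries were above all 3 whole kidney libraries, and MNP6 was the highest. It rose by a log2 fold change of 1.16 (SE 0.17, edgeR adjusted p = 0.00014), and was 2.24-fold higher in progenitors by mean CPM. It was the 17th most abundant miRNA in progenitors and the 36th in whole kidney. Without MNP6 the log2 fold change was 0.96 (adjusted p = 0.00043, range over the alternatives 8.40e-07 to 0.0077).

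miR-196a-5p, whose family is known to repress Hoxb8, stood at 5554, 5026 and 5329 CPM in progenitors. It stood at 2201, 2085 and 2455 CPM in whole kidney. The progenitor libraries lay close together and well above the whole kidney libraries. It rose by a log2 fold change of 1.24 (SE 0.15, edgeR adjusted p = 3.8e-05), a 2.36-fold difference in mean CPM, and by 1.20 without MNP6. The table counts miR-196a-5p once at each of its precursors, and in every library the count at mir-196a-1 was between 36.4% and 39.5% of that at mir-196a-2. This percentage did not separate the groups, with 37.6%, 38.4% and 36.8% in progenitors and 39.5%, 37.0% and 36.4% in whole kidney. The base that follows the strand in its hairpin is C in mir-196a-1 and A in mir-196a-2, and whether this bears on the percentage was not tested. The levels and ratios given for miR-196a-5p use its count at mir-196a-2, the larger in every library. With the rows of each miRNA summed, its log2 fold change was 1.27 (edgeR adjusted p = 7.2e-05).

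The 3p strands separate the mir-196a loci, at much lower counts. miR-196a-2-3p, from HoxC, had 68, 83 and 45 counts in progenitors and 23, 17 and 37 in whole kidney, that is 167, 181 and 118 CPM against 69.2, 53.5 and 108 CPM. The lowest progenitor library, MNP6, was above the highest whole kidney library, MWK6, by a small margin. It rose by a log2 fold change of 1.01 (SE 0.30, edgeR adjusted p = 0.017). The call rests on single libraries: the adjusted p was 0.073 without MNP2, 0.090 without MWK1 and 0.099 without MWK2, with log2 fold changes of 0.86, 0.94 and 0.80 (range of adjusted p over the alternatives 0.0079 to 0.099). miR-196a-1-3p, from HoxB, had 54, 59 and 24 counts in progenitors and 38, 54 and 48 in whole kidney, or 133, 129 and 63.1 CPM against 114, 170 and 140 CPM. Its groups overlapped and MNP6 was the lowest of all libraries. Its log2 fold change was -0.38 (SE 0.30, edgeR adjusted p = 0.39), and it was -0.15 without MNP6, -0.24 without MWK2 and -0.54 without MNP1 or without MNP2.

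The ratio of the HoxC to the HoxB 3p strand does not depend on scaling. miR-196a-2-3p over miR-196a-1-3p was 1.26, 1.41 and 1.88 in progenitors and 0.605, 0.315 and 0.771 in whole kidney. In all 3 progenitor libraries the HoxC strand was the more abundant, and in all 3 whole kidney libraries the HoxB strand was. The mean ratio was 1.51 ± 0.321 in MNP and 0.564 ± 0.231 in MWK (SD, n = 3; exact two-sided permutation test on log2 ratios, p = 0.10). With miR-196a-5p in place of the HoxC 3p strand, the ratio to miR-196a-1-3p was 41.8, 39.1 and 84.5 in progenitors and 19.3, 12.3 and 17.5 in whole kidney, again without overlap (log2 difference 1.69, exact two-sided permutation test, p = 0.10). The ratio of miR-196a-5p to miR-196a-2-3p was 33.2, 27.8 and 45.1 in progenitors and 31.8, 38.9 and 22.7 in whole kidney, and here the groups overlapped (log2 difference 0.19, exact two-sided permutation test, p = 0.50). Without MNP6 this difference was -0.0029, and without MWK6 it was -0.023. In all, 8 ratios were tested between Hox-cluster strands, without adjustment.

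miR-196b-5p, from HoxA and sharing the seed of miR-196a-5p, stood at 906, 630 and 599 CPM in progenitors and at 770, 746 and 666 CPM in whole kidney. MNP1 was the highest library, MNP6 the lowest, and the groups overlapped. Its log2 fold change was -0.031 (SE 0.21, edgeR adjusted p = 0.94), and its sign changed with the scaling, to 0.17 with library totals, and with the library left out, from -0.24 without MNP1 to 0.040 without MNP6. The ratio of miR-196a-5p to miR-196b-5p was 6.13, 7.98 and 8.89 in progenitors and 2.86, 2.79 and 3.69 in whole kidney. Every progenitor library was above every whole kidney library, with a log2 difference of 1.30 (exact two-sided permutation test, p = 0.10).

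**Figure D2:**
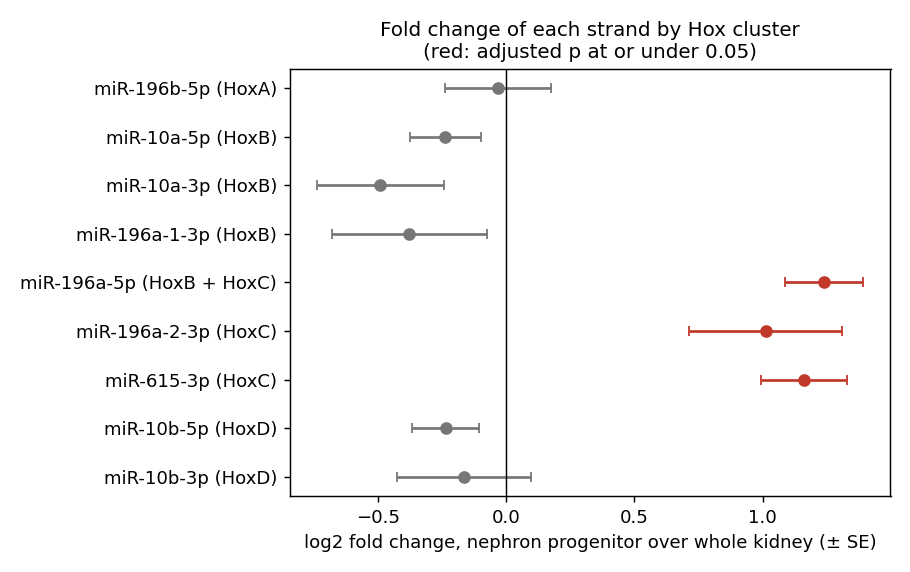
Log2 fold change of each Hox-cluster strand, nephron progenitor over whole kidney, with bars of 1 standard error from edgeR, ordered by Hox cluster; red points passed an adjusted p of 0.05. miR-615-3p, miR-196a-5p and miR-196a-2-3p lie near 1, and the strands of HoxA, HoxB and HoxD lie between -0.49 and -0.031. With library totals in place of TMM, miR-10b-3p and miR-196b-5p change sign, to 0.027 and 0.17.

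miR-10a-5p, next to Hoxb4 and the most abundant miRNA of the table, stood at 234663, 209586 and 161835 CPM in progenitors and at 223290, 254595 and 236667 CPM in whole kidney. MNP6 was the lowest library and MNP1 lay among the whole kidney libraries, so the groups overlapped. Its log2 fold change was -0.24 (SE 0.14, edgeR adjusted p = 0.23). miR-10b-5p, its near copy in HoxD, stood at 100498, 82749 and 74216 CPM in progenitors and at 98893, 103710 and 100639 CPM in whole kidney. Again MNP1 lay within the whole kidney range and MNP2 and MNP6 below it. Its log2 fold change was -0.24 (SE 0.13, edgeR adjusted p = 0.20).

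The 3p strands of both loci are rare beside their 5p strands. miR-10a-3p had 409, 351 and 213 CPM in progenitors and 421, 510 and 438 CPM in whole kidney. All 3 whole kidney libraries were above all 3 progenitor libraries, although MNP1 and MWK1 nearly met. The log2 fold change was -0.49 (SE 0.25, edgeR adjusted p = 0.15). miR-10b-3p, at 143, 122 and 81.5 CPM in progenitors and 123, 126 and 140 CPM in whole kidney, overlapped between the groups (log2 fold change -0.17, SE 0.26, edgeR adjusted p = 0.68). This value was -0.34 without MNP1, -0.012 without MNP6 and -0.10 without MWK6. The calls of the other miR-10 strands turned on a single library. Without MNP1, miR-10a-5p, miR-10a-3p and miR-10b-5p were lower in progenitors past the threshold. Their log2 fold changes were then -0.36, -0.68 and -0.36, with edgeR adjusted p of 0.033, 0.026 and 0.021. In that fit 6 of the 9 strands were called, 3 of them lower, against 211 of all 510 miRNAs tested, of which 102 were lower. Over the alternatives the adjusted p of miR-10a-5p, miR-10a-3p and miR-10b-5p ranged up to 0.83, 0.38 and 0.84. Without MNP6, the log2 fold change was -0.14 for miR-10a-5p, -0.30 for miR-10a-3p and -0.18 for miR-10b-5p. With library totals in place of TMM, it was -0.04, -0.30 and -0.04 in the same order.

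The balance of miR-10a to miR-10b was steady at the 5p strands. miR-10a-5p over miR-10b-5p was 2.33, 2.53 and 2.18 in progenitors and 2.26, 2.45 and 2.35 in whole kidney. The groups overlapped, and the mean log2 ratio differed by -0.0051 (exact two-sided permutation test, p = 0.90). At the 3p strands the ratio of miR-10a-3p to miR-10b-3p was 2.86, 2.88 and 2.61 in progenitors and 3.41, 4.05 and 3.13 in whole kidney. Here all whole kidney libraries were above all progenitor libraries, with a log2 difference of -0.34 (exact two-sided permutation test, p = 0.10).

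At mir-10a and mir-10b, the 5p strand was far more abundant than the 3p strand. miR-10a-5p over miR-10a-3p was 574, 598 and 760 in progenitors and 530, 499 and 541 in whole kidney. The progenitor libraries were all higher and MNP6 the highest (log2 difference 0.29, exact two-sided permutation test, p = 0.10), and without MNP6 the difference was 0.16. miR-10b-5p over miR-10b-3p was 704, 678 and 911 in progenitors and 802, 823 and 718 in whole kidney, with overlap (log2 difference -0.042, exact two-sided permutation test, p = 0.80). On leaving out a library this difference ranged from -0.17 without MNP6 to 0.038 without MNP2.

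**Figure D3:**
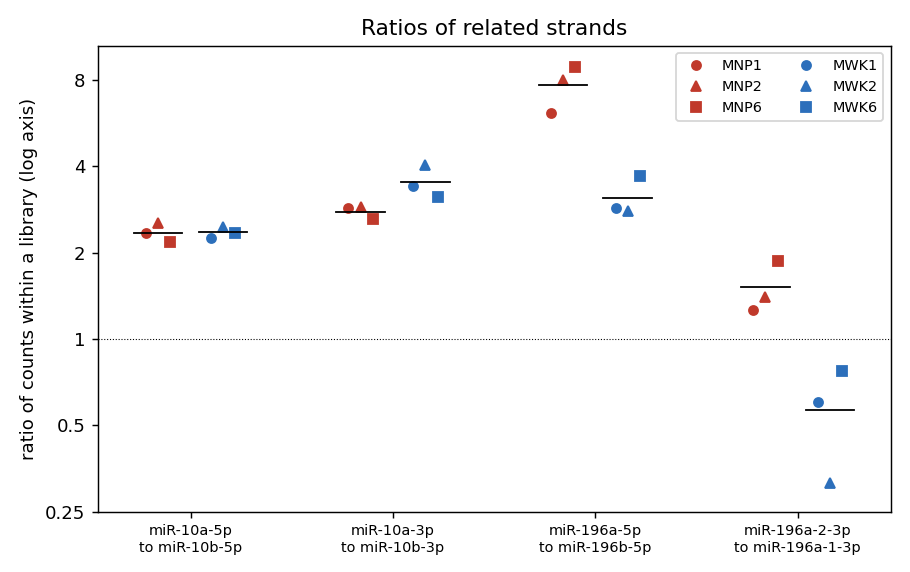
Ratios of related Hox-cluster strands within each library (log axis), with a point for each library, red for nephron progenitor and blue for whole kidney, and a line at each mean. The ratio of miR-10a-5p to miR-10b-5p lies between 2.18 and 2.53 in all 6 libraries, while those of miR-196a-5p to miR-196b-5p and of miR-196a-2-3p to miR-196a-1-3p are higher in every progenitor library.

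Summed by cluster, the HoxC strands (miR-615-3p and miR-196a-2-3p) stood at 10555 ± 1829 CPM in MNP and 4726 ± 579 CPM in MWK (SD, n = 3), a log2 ratio of 1.16 without overlap (exact two-sided permutation test, p = 0.10). The HoxB strands (miR-10a-5p, miR-10a-3p and miR-196a-1-3p) stood at 202460 ± 37136 CPM in MNP and 238782 ± 15781 CPM in MWK, a log2 ratio of -0.24 (exact two-sided permutation test, p = 0.20). The HoxD strands (miR-10b-5p and miR-10b-3p) stood at 85937 ± 13437 CPM in MNP and 101211 ± 2438 CPM in MWK, a log2 ratio of -0.24 (exact two-sided permutation test, p = 0.20). Without MNP1 the log2 ratio was -0.36 for the HoxB and -0.36 for the HoxD strands, without MNP6 it was -0.14 and -0.18, and with library totals it was -0.040 and -0.037. HoxA has a single strand, miR-196b-5p, for which the exact two-sided permutation test gave p = 0.90. miR-196a-5p, shared by HoxB and HoxC, is in none of these sums. The HoxC, HoxB and HoxD sums each lie close to the level of 1 strand. The mean CPM in MNP and MWK was 10399 and 4649 for miR-615-3p. It was 202028 and 238184 for miR-10a-5p, and 85821 and 101081 for miR-10b-5p.

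Relatives by sequence lie outside the Hox clusters. miR-100-5p, a miR-10 relative, stood at 13750, 20419 and 28221 CPM in progenitors and at 5518, 6014 and 6319 CPM in whole kidney. All 3 progenitor libraries were above all 3 whole kidney libraries. It rose by a log2 fold change of 1.81 (SE 0.22, edgeR adjusted p = 3.1e-05), and the log2 fold change was 1.03 for miR-99a-5p and 0.59 for miR-99b-5p, so that 3 of 3 were higher. Of the 8 let-7 5p strands, relatives of miR-196, 3 passed the threshold and were higher, with log2 fold changes of 0.40 for let-7a-5p, 0.65 for let-7c-5p and 0.62 for let-7e-5p. Among all 525 miRNAs 36.6% passed in either direction and 19.4% were higher. miR-98-5p, which has the let-7 seed but was not in the list, had a log2 fold change of -0.35 (edgeR adjusted p = 0.27). Also outside the list was let-7j, which did not pass (log2 fold change 0.14, edgeR adjusted p = 0.42). Whether these changes differ from those of the miR-10 and miR-196 strands was not tested.

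By pattern over the 6 libraries (root mean square difference of centred log2 CPM, among 286 miRNAs with a mean of at least 50 CPM), miR-10a-5p was nearest to miR-19b-3p (0.051), miR-340-5p (0.070) and miR-10b-5p (0.072). miR-10b-5p was nearest to miR-10a-5p, then to miR-1839-5p (0.073) and miR-191-5p (0.079). miR-196a-5p was nearest to miR-181a-2-3p (0.10), miR-335-3p (0.13) and miR-615-3p (0.16). This measure includes the difference between the groups, so strands with a similar fold change are near each other by construction. miR-615-3p was nearest to miR-196a-5p, then miR-99a-5p (0.18) and miR-181a-2-3p (0.18), and miR-196a-2-3p to miR-335-3p (0.30), miR-196a-5p (0.31) and miR-676-3p (0.31). miR-196b-5p was nearest to let-7d-5p (0.086), let-7b-5p (0.11) and miR-17-5p (0.12). miR-10a-3p was nearest to miR-16-5p (0.086), miR-101b-3p (0.10) and miR-24-3p (0.11). miR-10b-3p was nearest to miR-106b-5p (0.087), miR-3535 (0.090) and miR-340-5p (0.093), and miR-196a-1-3p to miR-10a-3p (0.13), miR-183-5p (0.18) and miR-16-5p (0.19).

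Markers of other cell types also differed between the groups, and those counted as lower passed the threshold in edgeR, as 17.1% of all miRNAs did in that direction. The 5 epithelial markers (miR-200a-3p, the most abundant, miR-200b-3p, miR-200c-3p, miR-141-3p and miR-429-3p) summed to 214, 366 and 86.7 CPM in progenitors and to 23365, 24832 and 21253 CPM in whole kidney. All 5 were lower in progenitors, at 0.960% of the whole kidney sum, and miR-141-3p had 0 counts in all 3 progenitor libraries. The 2 endothelial markers, of which miR-126a-3p is the more abundant, summed to 419, 595 and 578 CPM in progenitors and 20132, 21311 and 18150 CPM in whole kidney, with 2 of 2 lower. Of the other lists, 3 of 3 erythroid markers were lower (234, 161 and 81.5 CPM against 1131, 1121 and 572 CPM, led by miR-451a). For smooth muscle and pericytes 2 of 2 were lower (21368, 28229 and 25724 CPM against 60668, 71504 and 57415, led by miR-143-3p), and for differentiated tubule 2 of 3 (864, 847 and 1064 CPM against 2857, 2928 and 2116, led by miR-192-5p), while miR-204-5p did not pass (log2 fold change -0.19, edgeR adjusted p = 0.61). The 3 markers of stroma and fibroblasts, led by miR-199a-3p, summed to 12414, 17049 and 20332 CPM against 13006, 13823 and 13471, with edgeR adjusted p from 0.16 to 0.65. The 3 markers of leukocytes, led by miR-142a-3p, summed to 113, 124 and 49.9 CPM against 78.2, 78.7 and 61.3, with edgeR adjusted p from 0.26 to 0.81. Apart from miR-141-3p, no marker of these lists was at 0 in all 3 progenitor libraries. The lists do not hold every strand of these miRNAs, and the strands outside them given here were chosen after their values were seen. Of the smooth muscle pair, miR-143-5p (log2 fold change -0.12, edgeR adjusted p = 0.81) and miR-145a-3p (-0.30, 0.31) did not pass. Of stroma and fibroblasts, miR-214-5p (log2 fold change 0.28, edgeR adjusted p = 0.50) did not pass. Nor did miR-199b-3p (0.23, 0.31), whose values equal those of miR-199a-3p. Higher in MNP were miR-199b-5p (2900, 3475 and 3479 CPM against 1861, 2062 and 1778, log2 fold change 0.79, edgeR adjusted p = 0.0018) and miR-223-5p (9.85, 17.4 and 18.4 CPM against 0 in each MWK library, edgeR adjusted p = 0.0050). The level of miR-223-5p is near the detection floor, which is 6.88 to 8.99 CPM. The sum for stroma and fibroblasts was highest in MNP6 and lowest in MNP1. Outside the marker lists, the summed miR-99a-5p, miR-99b-5p and miR-100-5p also climbed from MNP1 to MNP6 (60231.5, 72144.2 and 92056.8 CPM). That sum was higher in every progenitor library than in any whole kidney library. The paper found minor stromal contamination of its progenitor isolate by qPCR of Pdgfrβ. By in situ hybridisation it saw miR-615 throughout the developing kidney. There miR-10a appeared enriched in the nephrogenic zone, which holds progenitors, stroma and ureteric bud. The part of the cell types of these lists in the differences of miR-615-3p and miR-196a-5p was not tested.

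A nearly complete match to miR-196a-5p in a Hox gene was found from sequence alone. Sliding miR-196a-5p without gaps along the 3′ UTRs of 20898 protein-coding genes (GENCODE M21) and counting base pairs gave Hoxb8 as its best match, with 21 Watson-Crick pairs and 1 G-U pair over its 22 bases, and the next gene reached 17. The site is shown because this pairing is nearly complete, with capitals for the bases opposite the seed, and its G-U pair is at base 5 of the miRNA (chr11:96284888-96284909, + strand, in the 3′ UTR).
Hoxb8 site: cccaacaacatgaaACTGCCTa
miR-196b-5p also had Hoxb8 as its best match, with 20 Watson-Crick pairs, and the next gene had 18. For miR-10a-5p, miR-10b-5p and miR-615-3p the best matches were outside the Hox genes. A match is a description of sequence, and Hox mRNA levels were not analysed here.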

How the data were processed

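Per the labels and the methods, the authors trimmed adapters, aligned reads to mm10 with Bowtie2 2.2.3 and quantified known miRNAs by miRDeep2. The deposited values are estimated counts without normalization, a row for every mature miRNA and precursor. The largest row of a mature miRNA was kept per library, and expected counts were rounded (3 rows hold fractions). The design had assumed whole counts. miRNAs with more than 10 counts summed over 6 libraries were tested with edgeR 4.0.16 (TMM, quasi-likelihood, R 4.3.3), with Benjamini-Hochberg adjustment over 525 miRNAs. DESeq2 1.42.0 and limma 3.58.1 (voom) were alternatives, and other alternatives changed the scaling, filter, rows, replicate block and libraries. Standard errors were log2 fold changes over the square root of F. Ratios and sums used exact permutation tests over libraries (scipy 1.17.1). The test steps were checked on simulated counts.

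Groups came from the sample labels. The columns MNP6 and MWK6 match no sample title and entered as group members without a number. The prior count in log2 CPM for likeness was 2. Named miRNAs were the members, the miR-99/100 and let-7 relatives, neighbours within 100 kb of a Hox gene, and the 3 nearest in pattern. The members and lists were chosen with earlier results of these data known, and the search of 3′ UTRs was added after the values had been seen. Figures used matplotlib 3.10.9.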

Additional observations from a re-analysis of the deposited data

How the results depend on the processing

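miR-615-3p and miR-196a-5p stayed higher in progenitors past the threshold in all 16 alternatives (log2 fold changes of 0.96 to 1.37 and 1.18 to 1.44). miR-196a-2-3p did so in 13 and lost the call in 3 that leave out a library (0.80 to 1.34 over the 6 leave-one-out fits). The number of Hox-cluster strands past the threshold was 3 except in leave-one-out fits, where it ranged from 2 to 6. The number of all miRNAs past it was 120 of 260 tested with more than 10 counts in every library, against 192 of 525 in the main test. It was 144 to 211 on leaving out a library. Library totals in place of TMM moved the median of all miRNAs to 0.19 and the split of calls from 102 higher and 90 lower to 121 and 74.

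The sign of small differences was not settled, and the cause was not tested. With library totals the log2 ratio of the summed strands was 0.0098, the log2 fold change of miR-10b-3p was 0.027 and that of miR-196b-5p 0.17 (summed HoxA level also 0.17). miR-196b-5p was at 0.020 with more than 10 counts in every library, and from -0.24 to 0.040 on leaving out a library (summed HoxA level -0.24 to 0.042). On leaving out a library the log2 ratio difference ranged from -0.061 to 0.047 for miR-10a-5p to miR-10b-5p, from -0.17 to 0.038 for miR-10b-5p to miR-10b-3p and from -0.023 to 0.36 for miR-196a-5p to miR-196a-2-3p.

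In the 4 libraries numbered 1 and 2, a model with a replicate block gave 153 calls (71 higher, 82 lower). Without the block there were 134 calls, and 3 Hox-cluster strands were called in both fits. MNP6 and MWK6 also share a number but match no sample title, and a block over all 6 libraries was not fitted. The groups share their litters, but no source used here says that equal numbers mark a litter. Differences between numbers 1 and 2 correlated by 0.039 across miRNAs. With and without the block, miR-10b-3p was at 0.053 in the libraries numbered 1 and 2. The ratio difference was 0.047 for miR-10a-5p to miR-10b-5p, -0.23 for miR-10b-5p to miR-10b-3p and -0.21 for miR-196a-5p to miR-196a-2-3p. The 3p strands of mir-196a had 17 to 83 counts a library and miR-10b-3p 31 to 58, which limits their precision.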
